A study of Mus musculus with 40 samples.

Results

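DNA methylation was examined at 10 imprinted loci of the mouse liver, those of Gnas, Nnat, Meg3, Dlk1, Peg10, Nap1l5, Inpp5f, Rasgrf1, Cdkn1c and Ndn. The loci were taken by name, and each comprised the body of the gene and 5 kb to either side (mm9). Methylation was measured by reduced representation bisulfite sequencing (RRBS), which reads CpG dinucleotides close to the cut sites of the enzyme MspI. The 40 mice were C57BL/6 males (C57BL/6J in the study's methods) killed at 9 weeks of age, 10 for each combination of a low fat (LF) or high fat (HF) maternal diet with an LF or HF diet after weaning, so the 4 groups differed, by their labels, in diet alone. The dams received their diet from before mating until weaning, and the labels do not give the litter of a mouse, so p-values treat mice as independent although some may be littermates. By the study's methods, the males of each cage were divided between both diets at weaning. Littermates can therefore stand on both sides of a post-weaning comparison. For the maternal diet the dam is the treated unit, which the tests and intervals here do not take into account. The table of CpGs listed 246 cytosines of these loci among 400298 in all, and 145 of them, among 262317, had at least 10 reads in at least 36 mice and were tested. A CpG read on both strands counts here as 2, which was the case at 3 CpGs of the tested ones.

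At an imprinted locus, the copy inherited from one parent carries methylation at a control region that the copy from the other parent lacks, and the mark set in the germ line persists through the reprogramming that follows fertilization. The factor ZFP57 binds the hexanucleotide TGCCGC when its CpG is methylated and keeps the mark on that copy. In a tissue where all cells carry 1 methylated and 1 unmethylated copy, reads from such a region are methylated and unmethylated in similar numbers. The mice belong to a single inbred strain, so reads cannot be assigned to a parental copy, and a mixture of cells with different methylation cannot be told apart from a difference between the copies. Genes of this class regulate growth and metabolism, and maternal nutrition acts in the period in which the marks are maintained, which is the question that the diet groups address at these loci.

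The tested CpGs were divided by their mean over the mice into those under 35%, those from 35% to 65%, called intermediately methylated here, and those over 65%. Of the 145 CpGs of the imprinted loci, 47 lay under 35%, 74 were intermediately methylated and 24 lay over 65%. Intermediate CpGs thus made up 51.03% of the tested CpGs of these loci, against 5.54% of all tested CpGs of the table, where 60.01% lay under 35% and 34.4% over 65%. The intermediate CpGs belonged to 3 of the 10 loci. Gnas held 53 (of 56 tested), Peg10 held 12 (of 19) and Cdkn1c held 9 (of 34). Nnat, Dlk1, Inpp5f and Rasgrf1 had tested CpGs of the low or high class alone, the 5 tested CpGs of Nap1l5 lay over 65%, and no cytosine of Meg3 or Ndn was listed. The windows of Meg3 and Ndn contain 591 and 126 CpGs in the reference, with 46 and 5 MspI sites (CCGG), so that nothing can be said of their methylation from these data. Those of Nnat, Dlk1, Inpp5f and Rasgrf1 contain 314, 423, 1098 and 1271 CpGs, beside 5, 14, 9 and 3 tested cytosines. Most of each of these windows was therefore not measured, and intermediate CpGs may lie there.

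**Figure D1:**
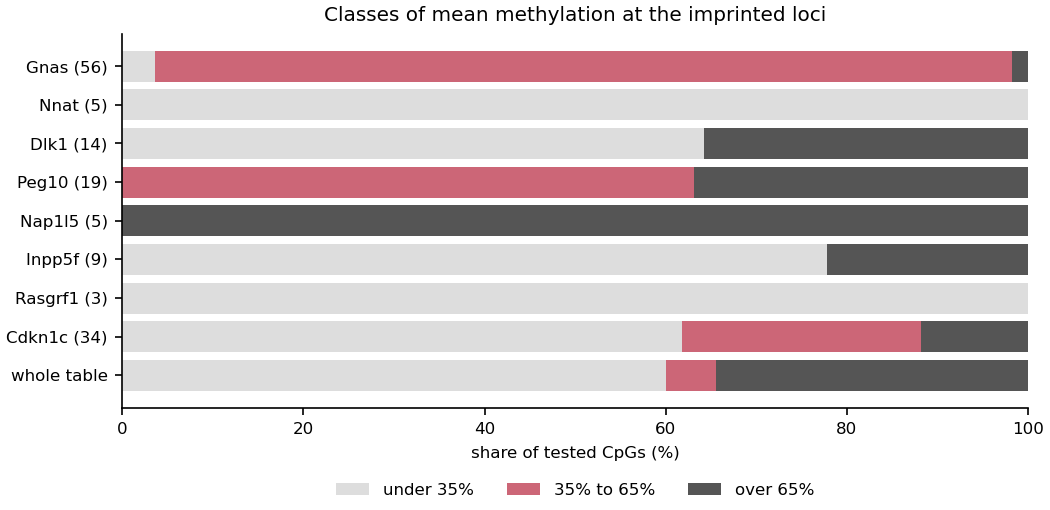
Share of the tested CpGs of each locus (x axis, percent) with a mean over mice under 35%, from 35% to 65% or over 65%, with the number of tested CpGs in parentheses and the whole table of 262317 CpGs in the lowest bar. Intermediate CpGs fill most of the bars of Gnas and Peg10, part of that of Cdkn1c, and 5.54% of that of the whole table.

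The reference sequence (mm9, plus strand) is given for stretches that show each kind of locus, with the CpGs that were tested in capitals and the other bases in lower case. The first stretch lies in the first coding exon of Gnas, which is also an exon of the antisense transcript Nespas, and the second in the long coding exon that begins the extra-large form of the Gnas protein. Both were intermediate. The Nap1l5 stretch lies in its coding exon, inside an intron of Herc3, and was just above the intermediate class. A Cdkn1c stretch from the coding exon lies around the lower limit of the class, another from the sequence upstream of the gene holds CpGs on both sides of that limit, and a stretch upstream of Dlk1 was methylated.
Gnas, chr2:174110296-174110361: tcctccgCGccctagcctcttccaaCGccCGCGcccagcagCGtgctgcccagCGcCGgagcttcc
Gnas, chr2:174125440-174125561: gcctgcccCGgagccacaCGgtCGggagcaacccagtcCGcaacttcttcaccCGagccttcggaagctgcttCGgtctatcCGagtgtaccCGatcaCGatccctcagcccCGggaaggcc
Nap1l5, chr6:58856711-58856771: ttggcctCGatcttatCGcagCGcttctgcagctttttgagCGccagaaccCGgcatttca
Cdkn1c, chr7:150646017-150646055: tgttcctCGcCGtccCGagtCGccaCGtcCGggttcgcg
Cdkn1c, chr7:150649836-150649891: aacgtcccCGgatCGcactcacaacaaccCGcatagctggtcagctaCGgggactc
Dlk1, chr12:110686707-110686736: gaggccaCGggccaCGttccCGgtcctcta

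The 7 tested CpGs of the first Gnas stretch had means from 51.4% to 53.3%, and the 10 of the second had means from 35.8% to 52.0%. The 5 CpGs of the Nap1l5 stretch ranged from 65.5% to 79.3%. In the Cdkn1c coding exon 6 CpGs within a stretch of 39 bases ranged from 27.5% to 39.6%, and in the upstream stretch 4 CpGs ranged from 27.8% to 45.4%. The 4 CpGs upstream of Dlk1 ranged from 89.4% to 96.0%. The class limits therefore cut through the Cdkn1c stretches. The CpGs just below 35% belonged to Cdkn1c (33.4% and 34.3%), those just above it to Gnas and Cdkn1c (35.2% and 35.3%). At the upper limit the nearest were Cdkn1c CpGs at 58.0% and 64.3% below, and CpGs of Nap1l5 and Cdkn1c at 65.5% and 65.8% above.

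Gnas encodes the stimulatory G protein alpha subunit, which couples glucagon, adrenaline and other hormone receptors to adenylyl cyclase, and lies on chromosome 2 (174109821 to 174172245, plus strand). Its locus has several first exons with their own imprints. The promoter of the Nesp transcript lies at the start of the annotated gene and is active on the maternal copy, with Nespas running against it, and the promoter of the extra-large form is active on the paternal copy. Another control region lies ahead of the promoter of the main transcripts, which is not itself methylated on either copy. The 53 intermediate CpGs fell into 3 regions more than 5 kb apart. Region 1 comprised 22 CpGs from 174109725 to 174113317, just ahead of the start, in the first coding exon and in the intron that follows, all within Nespas. Region 2 comprised 17 CpGs from 174123667 to 174125553, in the coding exon of the extra-large form. Region 3 comprised 14 CpGs from 174153351 to 174153934, of which 13 are annotated as untranslated sequence and 1 as intron.

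The means of single CpGs ranged from 35.2% to 53.3% in region 1, from 35.8% to 57.6% in region 2 and from 44.2% to 57.5% in region 3. Averaged over the CpGs of a region and over the 40 mice, the level was 47.4% ± 6.70 (SD, n = 40) in region 1, 49.0% ± 5.77 in region 2 and 48.6% ± 9.05 in region 3. The 3 levels were similar, but only CpGs with means from 35% to 65% enter them, so their likeness is in part set by the class. The stretch of region 2 also held the 1 CpG of the locus over 65%, at 174123795, with a mean of 67.2%, which does not enter the level of the region. The 2 remaining tested CpGs lay at 174155343 and 174155732, in untranslated sequence near the starts of the main transcripts, with means of 6.78% and 4.48%. The 14 intermediate CpGs of region 3, the longest run of the locus, were thus followed downstream by CpGs that were nearly free of methylation. The CpG closest to 50% among those read in all 40 mice was 174153451 in region 3, at 50.3% ± 11.8 (SD over mice). Another 53 cytosines of the locus were listed but covered in 33 to 35 mice only, and 24 of these had means between 35% and 65%.

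**Figure D2:**
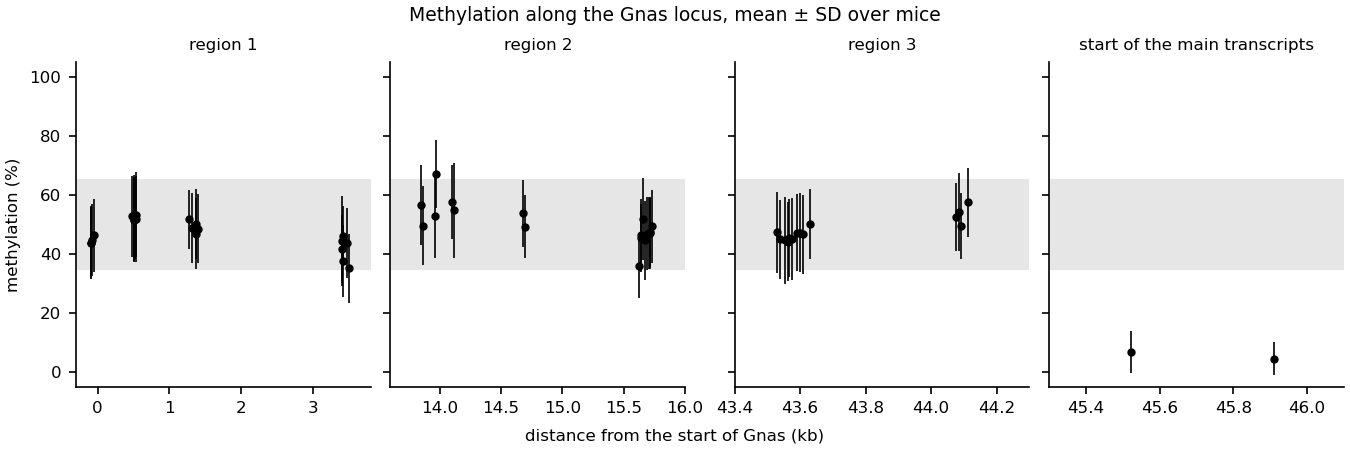
Mean methylation of each tested Gnas CpG (y axis, percent, points) with the SD over mice (bars), against the distance from the start of the gene (x axis, kb) in its 3 intermediate regions and near the starts of the main transcripts. The grey band marks 35% to 65%, which holds 53 of the 56 CpGs, while the pair of CpGs in the last panel lies at 6.78% and 4.48%.

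Peg10, a gene derived from a retrotransposon and required in the placenta, lies on chromosome 6 (4697306 to 4710514, plus strand) and shares its promoter region with Sgce, which runs the other way and encodes a sarcoglycan. All 12 intermediate CpGs lay within 136 bases, from 49 to 184 bases downstream of the start of Peg10, in its untranslated first exon, and had means between 44.4% and 48.3%. The same 12 CpGs are the intermediate ones of the Sgce window. The other 7 tested CpGs lay 8641 to 8983 bases downstream of the start, in the coding exon, with means from 74.9% to 97.9%. Averaged per mouse, the start CpGs lay at 45.6% ± 8.85 and those of the coding exon at 92.5% ± 2.31 (SD, n = 40). Of the start CpGs read in 39 mice, the one closest to 50% was 4697355, at 45.6% ± 11.7 (SD over mice).

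Cdkn1c encodes the cyclin-dependent kinase inhibitor p57, which restrains growth and is expressed from the maternal copy. It lies on chromosome 7 (150644255 to 150646955, minus strand), and its tested CpGs had no common level. Of 34, 21 lay under 35%, 9 were intermediate and 4 lay over 65%. In the body of the gene, 21 CpGs ranged from 7.18% in an intron to 58.0% at the farthest from the start. Upstream of the start, the CpGs at -1055 and -1169 bases lay at 86.4% and 83.9%, the 4 from -2889 to -2928 bases ranged from 27.8% to 45.4%, and the 7 from -4290 to -4422 bases ranged from 21.4% to 82.3%. The intermediate CpG closest to 50% among those read in 39 mice was 150646028 in the coding exon, at 39.6% ± 10.997. The 9 intermediate CpGs thus lay scattered among CpGs of the other classes, and no 3 of them adjoined each other within 500 bases, in contrast to Gnas and Peg10.

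Nap1l5, a small gene related to nucleosome assembly proteins that lies in an intron of Herc3, had 5 tested CpGs within 45 bases of its coding exon. Their mean over 39 mice was 72.1% ± 8.67 (SD). Another 3 cytosines of the same exon, covered in 34 mice, had means of 54.0%, 68.0% and 72.3%, and the first of these is the only one in the class of 35% to 65%. Dlk1 encodes a transmembrane inhibitor of adipocyte differentiation. It had 5 methylated CpGs from -4318 to -4175 bases relative to its start (85.6% to 96.0%), CpGs at -2419 and -2296 bases with 8.87% and 21.1%, and 7 CpGs in untranslated sequence and an intron near the start with means of at most 6.34%. For Nnat, which encodes neuronatin, a regulator of calcium handling and hormone secretion, the 5 tested CpGs lay beyond the end of the gene in Blcap, whose intron holds Nnat, with means from 0.0644% to 5.98%. For Inpp5f, an inositol phosphatase gene whose intron gives rise to an imprinted variant, 7 CpGs within 481 bases of the start ranged from 0.132% to 4.51%, and 2 intronic CpGs lay at 97.9%. For Rasgrf1, an exchange factor for Ras whose control region lies far upstream of the gene, 3 CpGs just ahead of the start lay between 1.19% and 8.58%. Another 7 cytosines of its window, covered in 33 to 35 mice and not tested, had means of 2.68% ahead of the start, of 19.2%, 23.8%, 25.7%, 41.5% and 85.1% in introns and of 84.1% in a coding exon. The listed but untested cytosines of the other loci ranged from 13.5% to 38.5% at Cdkn1c (19 cytosines), from 4.001% to 92.8% at Dlk1 (4), from 0.114% to 7.08% at Inpp5f (4), from 0.0% to 5.60% at Nnat (8) and from 93.0% to 95.5% at Peg10 (3).

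Runs of at least 3 intermediate CpGs, with no tested CpG of another class between them and gaps of at most 500 bases, numbered 810 in the whole table. Gnas had 7 and Peg10 had 1, and the other loci had none. In the 300 bases around the middle of each run, TGCCGC on either strand was found in 12.2% of all intermediate runs, in 6.97% of runs over 65% and in 23.9% of runs under 35%. The median number of CpGs in such windows was 9, 8 and 23. Of the 7 Gnas runs, 1 held it, with 2 matches, in the window around the run of the first coding exon but outside the 66 bases printed above. The Peg10 run held none, and the run over 65% in Nap1l5 and 1 run under 35% in Cdkn1c held 2 each. The start of Peg10 has 28 CpGs in that window of 300 bases and the first coding exon of Gnas 27. A match is a description of the sequence and not of binding.

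Of the 1153 annotated genes whose window held at least 3 intermediate CpGs and had a value in all mice, 1 had more of them than Gnas and 22 had a larger share of them among the tested CpGs. Of the Gnas CpGs, 39 also fall in the window of Nespas and 14 in that of AF085738. The windows without a CpG of these loci that were most alike, by the share of intermediate CpGs among the tested ones and with at least 10 of them, were those of Plagl1 (29 of 29 CpGs), Zrsr1 (12 of 13), Fut11 (25 of 31), Adamtsl2 (11 of 14) and RP23-324B17.1 (10 of 13), the last of which shares its CpGs with genes of the Ugt1a cluster. Plagl1 and Zrsr1 are themselves imprinted. The means of the intermediate CpGs in these windows were 46.4%, 49.96%, 55.6%, 54.8% and 50.1%.

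How the level varied between mice was examined next. Reads set the precision of each value. At the tested CpGs of Gnas the median was 23 reads per mouse (10 to 69), at those of Peg10 22 (10 to 120) and at those of Cdkn1c 22 (10 to 84). At the 74 intermediate CpGs, single values ranged from 4.76% to 90.9% at Gnas, from 16.7% to 90.9% at Peg10 and from 7.14% to 90.9% at Cdkn1c. The SD between mice within a diet group was 12.8 points, against 11.01 points expected from the number of reads with binomial counting. Their ratio was 1.16 over these CpGs and 1.18 over the other 14455 intermediate CpGs of the table. By locus, the ratio was 1.18 at Gnas, 1.08 at Peg10 and 1.17 at Cdkn1c. The ratio at the imprinted loci was thus near that of intermediate CpGs elsewhere. The counting error treats each read as a molecule of its own, and no molecular identifiers are described for these libraries.

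Neighbouring CpGs on the same strand lay close enough to be read on the same fragments, and they moved together from mouse to mouse at the start of Peg10 and in the Gnas stretches for which strands were separated (runs 3 to 5 of the 7 Gnas runs were not). Within the diet groups, the 7 CpGs of the first Gnas stretch, all read on the minus strand, had pairwise correlations over mice of 0.961 on average (21 pairs, range 0.931 to 0.982). A mouse had nearly the same value at each of the 7 CpGs, but these values ran from 25.6% in the lowest mouse over a median of 52.1% to 86.1% in the highest of 38 mice. At the start of Peg10 the 5 CpGs read on the plus strand correlated by 0.940 on average and the 7 read on the minus strand by 0.947. The total number of reads was the same at all 5 CpGs of the plus strand in 27 of 39 mice, and at all 7 of the minus strand in 23 of 37. In the upstream fragment of Gnas region 3, the corresponding means were 0.960 for 6 CpGs and 0.917 for 4. In its downstream fragment, 4 CpGs of the plus strand correlated by 0.760, the lowest of the values within a strand at Gnas and Peg10, and the SD of their mean was 0.949 times the binomial one.

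Across strands the correlation was near 0 or negative. The mean over the 35 pairs of a plus strand and a minus strand CpG of the Peg10 start was 0.0765 (range -0.0102 to 0.207), although these CpGs lie within the same 136 bases. In the upstream fragment of Gnas region 3 it was 0.0850 over 24 pairs, and in the second Gnas stretch printed above it was -0.274 over 25 pairs, with 0.799 and 0.933 within its strands. Over 37 mice, the mean of the plus strand and that of the minus strand of Peg10 correlated by 0.0625, with overall levels of 44.8% and 46.6%. The mean of a strand varied between mice within groups by 11.9 points on the plus and 12.6 points on the minus strand at Peg10, 1.06 times in both cases what binomial sampling gives for a single CpG. The first Gnas stretch departed more, with an SD of 14.4 points against 10.4, a ratio of 1.39. These correlations share libraries and reads and are given as a description.

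In the 3 stretches of Cdkn1c and Nap1l5 for which it was computed, the mean correlation within a strand was lower than in the Gnas and Peg10 stretches, and the difference was not tested. The mean correlation was 0.618 over the 6 CpGs of the Cdkn1c coding exon and 0.562 over the 4 upstream, and 0.524 over the 5 CpGs of Nap1l5, even where the total reads were the same at all CpGs in 36 of 38 mice, as in the upstream stretch of Cdkn1c. Over all pairs of CpGs of a run, whatever their strand, the mean correlation was 0.929 just ahead of the Gnas start and 0.961 in its first coding exon, both read on the minus strand alone. The other 5 Gnas runs hold CpGs of both strands and ranged from 0.0620 to 0.382, and the Peg10 run, also of both strands, was at 0.484. The 810 intermediate runs of the table, of 1 or both strands, had a median of 0.256 and a 95th percentile of 0.741.

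The mean over the intermediate CpGs of a locus was then compared between mice. Within diet groups its SD was 4.07 points at Gnas, where CpGs of several fragments are averaged, 9.18 points at Peg10 and 5.65 points at Cdkn1c. Over the 145 gene windows with at least 9 intermediate CpGs the median SD was 5.48 points, with a 5th percentile of 3.43 and a 95th percentile of 10.6, and 134 of them had a smaller SD than Peg10. The 12 Peg10 CpGs form a single run, however, while a window can average several fragments. Over the 810 intermediate runs of the table the median SD was 8.88 points, with a 5th percentile of 6.35 and a 95th percentile of 12.3. Beside these runs the SD of Peg10 was near the median. No relation between the loci or between the Gnas regions passed the test. For the deviations from the group means over the 40 mice, Pearson's r was -0.0184 between Gnas and Peg10 (permutation p = 0.911, Spearman's rho = -0.0349 with p = 0.831, and r = -0.00546 without the 2 mice farthest from the median), 0.0582 between Gnas and Cdkn1c (p = 0.722, rho = 0.0253 with p = 0.878, and r = -0.180 without 2 mice) and 0.159 between Peg10 and Cdkn1c (p = 0.329, rho = 0.0460 with p = 0.777, and r = 0.0470 without 2 mice). Among the 3 Gnas regions r was -0.252 between regions 1 and 2 (p = 0.117, rho = -0.193 with p = 0.233, and r = -0.225 without 2 mice), 0.124 between regions 1 and 3 (p = 0.447, rho = 0.0668 with p = 0.682, and r = -0.0629 without 2 mice) and 0.0947 between regions 2 and 3 (p = 0.558, rho = 0.0927 with p = 0.567, and r = 0.0219 without 2 mice). The smallest of these 6 permutation p-values for r was 0.702 after Benjamini-Hochberg adjustment and the smallest for rho was 0.878.

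The diets were compared at each locus within the other diet. At Gnas the 53 intermediate CpGs averaged 48.7% ± 4.30 in LF fed animals of LF fed dams (SD, n = 10; lowest 43.8%, median 48.1%, highest 58.1%). They averaged 48.9% ± 5.12 in animals from LF fed dams fed HF (40.05%, 48.7%, 57.1%), 47.4% ± 2.03 in animals from HF fed dams fed LF (44.9%, 47.0%, 50.6%) and 47.9% ± 4.17 in animals from HF fed dams fed HF (42.1%, 48.0%, 54.2%). All 4 groups overlapped. Animals from HF fed dams differed from those from LF fed dams by -1.01 points when fed HF (95% confidence interval -5.40 to 3.37, permutation p = 0.635) and by -1.35 points when fed LF (-4.51 to 1.81, p = 0.402). Animals fed HF after weaning differed from those fed LF by 0.189 points when born from LF fed dams (-4.25 to 4.63, p = 0.931) and by 0.526 points when born from HF fed dams (-2.56 to 3.61, p = 0.725).

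At Peg10 the 12 start CpGs averaged 46.10% ± 12.2 in animals from LF fed dams fed LF (lowest 22.5%, median 48.8%, highest 63.9%), 44.9% ± 9.21 when fed HF (32.1%, 43.9%, 62.8%), 45.04% ± 7.17 in animals from HF fed dams fed LF (29.7%, 46.3%, 54.4%) and 46.4% ± 7.20 when fed HF (32.2%, 46.5%, 57.3%). Every pair of groups overlapped, and the lowest and the highest mouse of all belonged to the first group. The maternal diet gave differences of 1.56 points in animals fed HF (95% confidence interval -6.21 to 9.33, permutation p = 0.679) and -1.06 points in animals fed LF (-10.5 to 8.35, p = 0.815), neither of which passed the test. The post-weaning diet gave differences of -1.25 points (-11.4 to 8.92, p = 0.797) for LF fed dams and 1.38 points (-5.37 to 8.13, p = 0.672) for HF fed dams.

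At Cdkn1c the 9 intermediate CpGs averaged 45.7% ± 5.62 in animals from LF fed dams fed LF (lowest 34.9%, median 45.7%, highest 54.8%), 45.3% ± 5.78 when fed HF (36.4%, 45.2%, 54.2%), 46.05% ± 5.46 in animals from HF fed dams fed LF (35.7%, 45.3%, 55.4%) and 43.8% ± 5.74 when fed HF (37.0%, 42.7%, 52.5%). The groups overlapped throughout. The maternal diet gave differences of -1.47 points when fed HF (95% confidence interval -6.89 to 3.94, permutation p = 0.570) and 0.301 points when fed LF (-4.91 to 5.51, p = 0.906). The post-weaning diet gave -0.462 points (-5.82 to 4.90, p = 0.853) for LF fed dams and -2.24 points (-7.50 to 3.03, p = 0.384) for HF fed dams. In a linear model over the 40 mice, the interaction of both diets was 0.337 points at Gnas, 2.63 points at Peg10 and -1.78 points at Cdkn1c, with unadjusted p-values of 0.897, 0.654 and 0.623 from tests fitted over all windows.

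The same tests over all 1153 gene windows gave the background. No locus of the 3 passed an FDR of 5% in any of the 4 comparisons or the interaction, and none reached an unadjusted p below 0.05. With an FDR of 5%, 0.0% of the windows were called for the maternal diet when fed HF and 0.0867% when fed LF, 0.173% for the post-weaning diet from LF fed dams and 0.0% from HF fed dams, and 0.0% for the interaction. With an unadjusted p below 0.05 these were 5.38%, 5.98%, 7.98%, 10.8% and 7.29%. The intervals of the 4 diet differences spanned -5.40 to 4.63 points at Gnas and -11.4 to 9.33 points at Peg10. With the 9 Gnas CpGs that had 10 reads in all 40 mice, the maternal difference when fed LF was -5.78 points, outside that span, with an unadjusted p of 0.0524 and an FDR of 0.440.

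Within Gnas, the single regions were compared as part of a fit over the 789 groups of at least 3 intermediate CpGs that are separated by more than 5 kb and had a value in all mice. In animals born from LF fed dams, region 2 differed by -6.45 points between those fed HF and those fed LF (95% confidence interval -11.4 to -1.52). The level was 44.8% ± 5.37 in animals fed HF (n = 10; lowest 32.7%, median 45.97%, highest 51.2%) and 51.3% ± 5.12 in animals fed LF (lowest 43.8%, median 52.8%, highest 58.3%). The groups overlapped, but all 10 animals fed HF lay below the median of those fed LF. The permutation p of 0.0120 is unadjusted, and the FDR over the 789 groups was 0.548, so the difference did not pass. It was -5.10 points without the lowest mouse of the group fed HF (exact permutation p = 0.0243). In animals from HF fed dams, the same difference was -1.80 points (p = 0.473), and the interaction of both diets in this region, 4.65 points, had an unadjusted p of 0.179.

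In region 3, the same comparison of post-weaning diet gave 5.51 points (permutation p = 0.213). It averaged 54.7% ± 9.70 in animals from LF fed dams fed HF (lowest 41.4%, median 53.6%, highest 76.7%), 49.2% ± 9.31 when fed LF (36.2%, 48.7%, 64.5%), 46.9% ± 7.77 in animals from HF fed dams fed HF (34.9%, 46.5%, 59.1%) and 43.7% ± 6.48 when fed LF (35.9%, 43.4%, 54.0%). Animals from HF fed dams differed from those from LF fed dams by -7.86 points when fed HF (permutation p = 0.0567, FDR = 0.876) and by -5.49 points when fed LF (p = 0.142, FDR = 0.786). Region 2 showed 4.20 points more in the first of these comparisons (p = 0.0852, FDR = 0.879). Region 1 differed by at most 1.34 points in any comparison. Of the 789 groups, an unadjusted p below 0.05 was found for 4.94% and 6.72% in the comparisons of maternal diet when fed HF and fed LF, and for 7.22% and 9.25% in those of post-weaning diet from LF and HF fed dams, and at an FDR of 5% for 0.0%, 0.127%, 0.0% and 0.127%. The 1 unadjusted p below 0.05 among the 3 Gnas regions in 4 comparisons stands beside these shares.

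**Figure D3:**
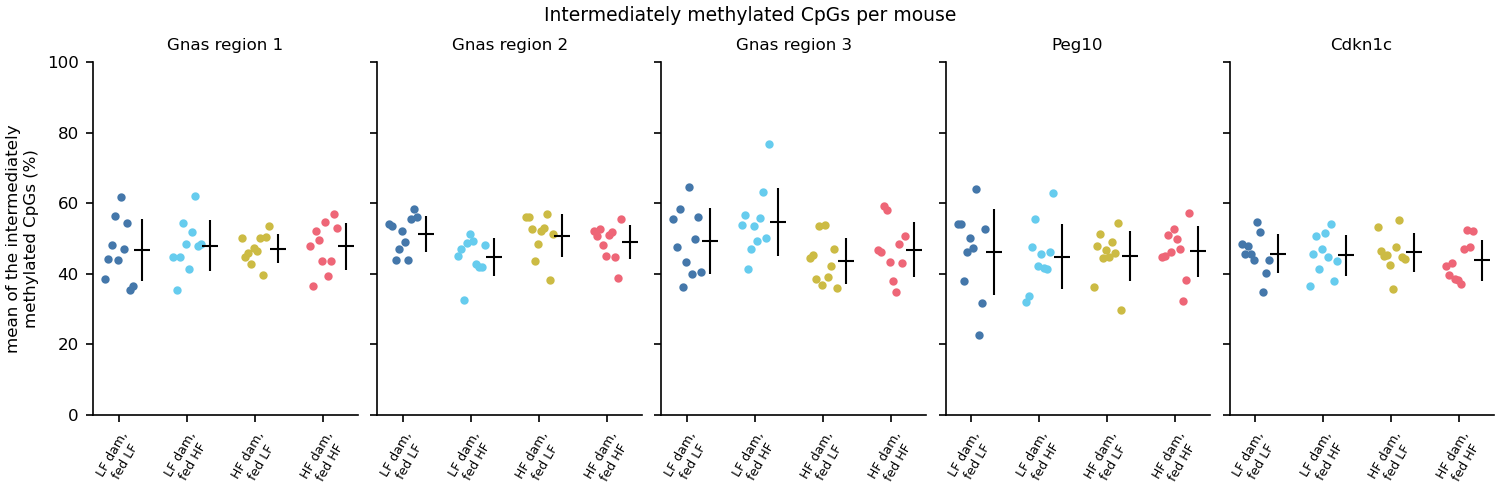
Mean of the intermediately methylated CpGs (y axis, percent) of each mouse (points) in the 4 diet groups (x axis) for the 3 Gnas regions, Peg10 and Cdkn1c, with the mean ± SD of each group of 10 beside the points. The groups overlap in every panel, and the lowest mouse of Peg10 lies at 22.5% (LF fed dams, fed LF) and that of Gnas region 2 at 32.7% (LF fed dams, fed HF).

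**Figure D4:**
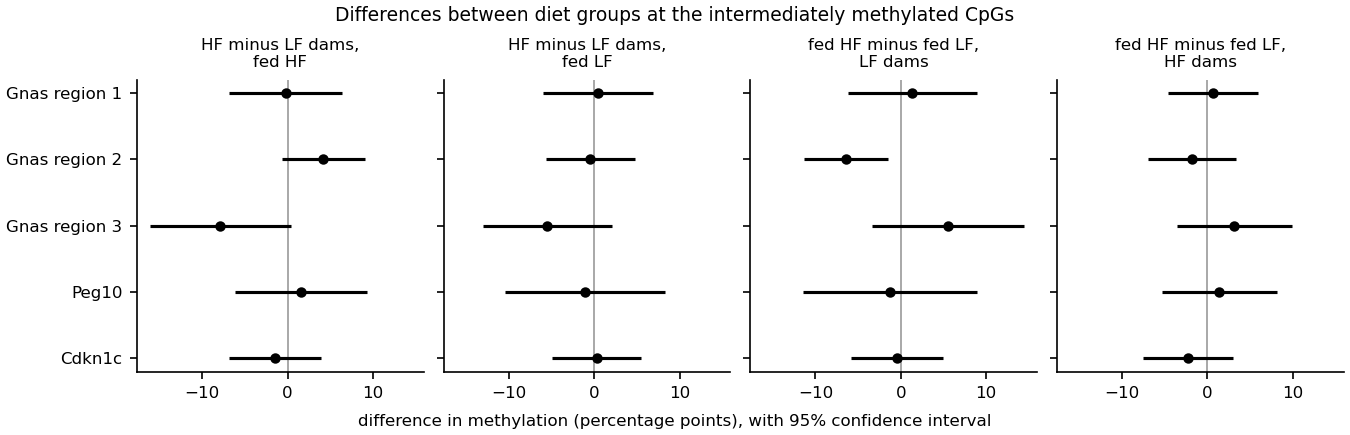
Difference between diet groups in the mean of the intermediate CpGs (x axis, percentage points, points) with its 95% confidence interval (bars) for the 3 Gnas regions, Peg10 and Cdkn1c, in the 4 comparisons. The interval of Gnas region 2 in the comparison of post-weaning diet from LF fed dams, around -6.45 points, is the only one of the 20 that leaves out 0, and it did not pass an FDR of 5%.

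All 145 tested CpGs were also compared one by one, by a two-sided test fitted over the whole table and unadjusted or adjusted by FDR. In the comparison of maternal diet when fed HF, 141 had a p-value and 0 passed an FDR of 5%, with 2 at an unadjusted p below 0.05. When fed LF, 0 passed and 3 of 143 had such a p. For the post-weaning diet, 0 passed and 5 of 142 had such a p from LF fed dams, and 0 passed and 3 of 141 from HF fed dams. Over the whole table, 3.72%, 3.99%, 4.03% and 4.06% of the CpGs had an unadjusted p below 0.05 in these comparisons, and 0.0%, 0.0%, 0.00084% and 0.00124% passed an FDR of 5%. The shares at the imprinted loci, 1.42%, 2.10%, 3.52% and 2.13%, were lower, but rest on 2, 3, 5 and 3 CpGs. Neighbouring CpGs of a strand were correlated, so these CpGs are not independent, and the difference was not tested. Among all intermediate CpGs of the table, 5.10%, 6.22%, 5.91% and 7.03% had such a p. Among the 74 of these loci the shares were 1.35%, 1.35%, 2.70% and 1.35%. Among the 14 CpGs of the loci with 10 reads in all 40 mice, however, 3 had such a p for the maternal diet when fed LF (21.4%, beside 4.74% of the whole table) and 1 for the post-weaning diet from HF fed dams (7.14%, beside 4.20%), with 0 in the other comparisons and 0 at an FDR of 5%. The exact Wilcoxon rank-sum test gave 2, 4, 4 and 3 CpGs at these loci, beside 3.46%, 3.60%, 3.72% and 3.69% of the whole table. With limma's moderated test they were 2, 0, 4 and 3, beside 4.42%, 6.14%, 4.58% and 4.90%.

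The single CpGs with the smallest p, the largest rise and the largest fall are given for each comparison, and none passed an FDR of 5%. For the maternal diet when fed HF, a CpG of Gnas region 2 (174125448) had the smallest p and the largest rise. It lay at 40.6% ± 6.16 in 9 animals from HF fed dams (lowest 32.8%, median 40.8%, highest 52.0%) and 27.8% ± 9.83 in 10 from LF fed dams (11.5%, 29.9%, 42.1%), a difference of 12.8 points (exact permutation p = 0.00327, FDR = 0.822). It is the first capital CpG of the second Gnas stretch, with the lowest mean of that stretch. The largest fall was at 174153906 in region 3, from 60.3% ± 15.1 to 49.99% ± 13.2 (n = 9 each), by 10.3 points (exact permutation p = 0.141). When fed LF, the smallest p belonged to 174111140 in region 1, at 53.1% ± 6.07 from HF fed dams and 45.1% ± 7.53 from LF fed dams (n = 10 each, permutation p = 0.0181, FDR = 0.818). The largest rise was in the Cdkn1c coding exon at 150645749, by 11.4 points (n = 10 and 8, exact permutation p = 0.0514), and the largest fall in region 2 at 174124517, by 10.1 points (permutation p = 0.0728).

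For the post-weaning diet from LF fed dams, the smallest p belonged to an intronic CpG of Dlk1 (110692129), which was nearly unmethylated, at 4.72% ± 4.14 in 10 animals fed HF and 0.446% ± 1.26 in 8 fed LF (exact permutation p = 0.0226, FDR = 0.808). The largest rise, 9.25 points, was ahead of the Gnas start at 174109727 (permutation p = 0.0399), and the largest fall, 12.4 points, in the Cdkn1c coding exon at 150645781, from 33.5% ± 14.4 to 21.05% ± 5.64 (n = 9 each, exact permutation p = 0.0298). From HF fed dams, the smallest p belonged to the methylated stretch upstream of Dlk1, where 110686715 lay at 84.3% ± 5.63 in 9 animals fed HF (lowest 75%, median 87.0%, highest 91.7%) and 91.9% ± 3.45 in 10 fed LF (86.0%, 93.0%, 95%), 7.58 points apart (exact permutation p = 0.00286, FDR = 0.820). The largest fall, 14.7 points, was far upstream of Cdkn1c at 150651245 (12.7% ± 7.87 in 9 and 27.4% ± 11.97 in 10 animals, exact permutation p = 0.00621, FDR = 0.820), and the largest rise, 12.002 points, in Gnas region 1 at 174113240 (permutation p = 0.0379).

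The libraries differed in depth. The reads at CpGs summed to between 2969907 and 23345592 per mouse, with medians per group from 7682335 to 9922782.5 (LF fed dams fed LF and HF fed dams fed LF). With log10 of the total reads as a covariate, again 0 of the 3 loci passed an FDR of 5% in any comparison. Cells of different types in the liver and a difference in methylation of the parental copies cannot be told apart in these bulk samples.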

How the data were processed

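RRBS libraries from the livers of 40 mice were analysed. Per the labels, DNA was cut with MspI, size selected and bisulfite converted, and the submitters' processing notes name Bismark and mm9. For each CpG and mouse, the deposited values were the count of methylated reads, the total read count, and in a second table a fraction, none of them normalized and no mice pooled. The total is absent below 10 reads. The fractions equalled the ratio of the 2 counts within 1e-06 points. There were 0 columns of unmapped mice.

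Percent methylation was computed from the counts. CpGs with at least 10 reads in at least 36 mice were tested, 262317 of 400298. Loci were the GENCODE genes of the NCBIM37 assembly with 5 kb to either side, and reference sequences came from the same assembly. The value of a locus was the mean over its CpGs of 35% to 65%, plus the mouse's mean deviation over those it covered. Groups were compared by a two-sided Student's t-test, fitted over all CpGs or all windows, with Benjamini-Hochberg adjustment, and single values by permutation (100000 resamples, exact where a group had fewer than 10 mice). The imprinted loci and these lists were chosen with earlier results of these data known. Named were the longest run of intermediate CpGs of a locus, the CpG closest to 50% among those read in most mice, for each comparison the CpG with the smallest p, the largest rise and the largest fall, and the 5 windows most alike. Pairs of mice of a group (180) differed by 1.21 to 2.27 times the counting error in variance, and each mouse was counted as 1 sample.

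The alternatives tried comprised Wilcoxon's rank-sum test (exact), that of Welch, limma 3.58.1 (a log2 scale, 0.5 added to both read numbers), other coverage filters, class limits, windows, summed reads and strands, a depth covariate, and leaving out the mouse with the fewest reads of each group. The fit over regions of intermediate CpGs was added after the data were seen. The fits were run on simulated data with binomial reads drawn independently for each CpG. The shifts put in were larger than the differences reported here, so the power to find those was not tested. Software was Python 3.11.15, numpy 2.4.6, scipy 1.17.1 and R 4.3.3.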

Additional observations from a re-analysis of the deposited data

Results flagged for a closer look

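In the group of animals born from LF fed dams and fed HF, mouse 3 had a level of 32.7% at Gnas region 2, against 41.9% in the next lowest and 51.2% in the highest of the 10, a gap of 0.497 of the range. It was marked as a sample far from the others. Of 24 such groups examined (Gnas, Peg10, Cdkn1c and the 3 Gnas regions in 4 diet groups) it was the 1 marked, and chance marks about 1 in 20. Without this mouse, the post-weaning difference in that region was -5.10 points in place of -6.45.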

How the results depend on the processing

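The counts of 0 tested CpGs at an FDR of 5% in the 4 comparisons, and of 0 loci in the same comparisons and the interaction, stayed at 0 under every alternative run. Among the loci, Cdkn1c and Peg10 had no fit where CpGs with 10 reads in all 40 mice were kept and Cdkn1c had none with the gene body alone. The count of 74 intermediate CpGs ranged from 64 to 101 under the other windows, class limits, strand sums and the deposited filter, but fell to 9 of 14 where 10 reads in all 40 mice were required and to 0 of 1 with a minimum of 20 reads, as few CpGs of these loci passed. With the deposited filter, the 101 intermediate cytosines were 41.06% of the 246 of these loci, beside 5.28% of the whole table. The ratio of the SD between mice to the binomial SD, 1.16, ranged from 1.11 to 1.17, with no value at 20 reads.

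Differences near 0 changed their sign, and the cause was not tested. At Gnas the post-weaning difference from LF fed dams, 0.189 points, was -0.121 with summed reads, -0.427 with CpGs in all 40 mice, -0.0262 with CpGs as deposited, -0.450 in the gene body and -0.583 without the mouse of each group with the fewest reads. The Gnas interaction, 0.337, was -0.364 at limits of 40% to 60% and -0.101 with the depth covariate. At Cdkn1c, the maternal difference when fed LF, 0.301, was -0.443 with summed reads, and the post-weaning difference from LF fed dams, -0.462, was 0.0349 without the mouse of each group with the fewest reads. At Peg10 the maternal difference when fed LF, -1.06, was 1.53 without those mice. All other differences kept their direction, but some grew or shrank, and those given here are examples. Without the mouse of each group with the fewest reads, the interaction went from -1.78 to -2.90 at Cdkn1c and from 0.337 to 1.25 at Gnas. The Peg10 post-weaning difference from LF fed dams went from -1.25 to -2.35 without those mice. With CpGs in all 40 mice, Gnas went from -1.35 to -5.78 for the maternal diet when fed LF, from -1.01 to -2.46 when fed HF, from 0.526 to 2.895 for the post-weaning diet from HF fed dams and from 0.337 to 3.32 for the interaction. Peg10 went from 1.56 to 4.47 for the maternal diet when fed HF without the mouse of each group with the fewest reads, and from 1.38 to 3.10 for the post-weaning diet from HF fed dams with the depth covariate. At limits of 40% to 60%, Cdkn1c went from -2.24 to -4.11 for the post-weaning diet from HF fed dams and from -0.462 to -2.51 from LF fed dams. Others came closer to 0. For the maternal diet when fed HF, Gnas went from -1.01 to -0.363 with summed reads, -0.466 in the gene body and -0.155 without the mouse of each group with the fewest reads, and Cdkn1c from -1.47 to -0.725 with CpGs as deposited. For the post-weaning diet from HF fed dams, Peg10 went from 1.38 to 0.589 without those mice, and Gnas from 0.526 to 0.150 with CpGs as deposited and 0.160 at 40% to 60%. With a minimum of 20 reads, the 1 CpG left had an unadjusted p below 0.05 for the post-weaning diet from LF fed dams, beside 18.8% of the table. None of these passed an FDR of 5%. Counts of CpGs at an unadjusted p below 0.05 moved by over 1.5 times in 14 cases, to between 0 and 7. Although the males of a cage were divided between the post-weaning diets, no paired analysis was possible. The labels give neither the litter nor numbers shared between groups. Depth limits all values, as single CpGs rest on about 23 reads, and the alternatives for the Gnas regions were chosen after seeing the data.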
